A study of Mus musculus with 3 samples.

Results

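The genes described here are 10 genes of the tight junction and of the junction between endothelial cells, 10 of the 32293 features counted in each library (32285 mouse genes and 8 transgenes). They were taken by name, with earlier results of these data known. The genes are Cldn1, Cldn3, Cldn4, Cldn5, Cldn7, Cldn9 and Cldn15 of the claudin family, Ocln, Tjp1 and Esam. Single-cell libraries were made from CD45- stromal cells of the thymus of untreated C57BL/6 mice aged 20 months, and there were 3 of them, each the sole library of its group. The Foxn1Lin female and Foxn1Lin male libraries came from Foxn1 lineage trace mice, in which Foxn1-Cre, active in cells that have turned on the epithelial factor Foxn1, switches on tdTomato for good in a cell and its progeny. The WT male library came from mice without the trace, and its labels name CD45- cells in the title but CD45-PECAM1+ cells in the cell type field. Each suspension pooled 10 to 15 thymi, and the protocol shared by all libraries names female mice although 2 of the titles name males. With 1 library per group, sex, genotype and library cannot be told apart, so differences between libraries are given without a test.

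Tight junctions seal the space between neighboring cells of an epithelium or endothelium. Claudins and occludin span the membrane and set which ions and solutes can pass, and ZO-1, the product of Tjp1, ties them to the actin cytoskeleton. In the thymus, claudin-3 and claudin-4 are known as surface markers of a lineage of medullary epithelium, and claudin-5 is the main claudin of vascular endothelium.

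Levels were compared between 4 cell classes, each gated by at least 2 UMIs (counted transcript molecules) of 1 gene: Epcam for thymic epithelial cells (TEC), Pecam1 for endothelial cells (EC), Pdgfra for fibroblasts (FB) and Upk3b for mesothelial cells (MEC). Barcodes in 2 classes were dropped. TEC numbered 514, 482 and 1056 barcodes in Foxn1Lin female, Foxn1Lin male and WT male, the order in which values of libraries are given throughout. EC numbered 2142, 857 and 888, and FB 1867, 878 and 1734. MEC numbered 345 in Foxn1Lin female and 39 in WT male, with 0 in Foxn1Lin male. Within TEC, barcodes with at least 2 UMIs of Plet1 numbered 33, 68 and 127, of Aire 137, 90 and 244, and of Psmb11, a proteasome subunit of cortical TEC, 78, 10 and 75, and the ungated remainder 258, 309 and 588. The classes carried their own markers, given as summed CPM (UMIs of a gene per 1000000 UMIs of the class). Those of TEC (5 keratins and H2-Aa) were at 6133 to 7612 in TEC, 87.71 to 276.8 in EC and FB, and 2123 and 1188 in MEC. EC markers (6 genes) were at 4738 to 5197 in EC and 29.77 to 293.5 in TEC, FB and MEC. FB markers (6 genes) were at 13847 to 16687 in FB, 9511 and 10470 in MEC, and 111.7 to 609.8 in TEC and EC. Mesothelial markers (5 genes) were at 2930 and 3192 in MEC and 1.09 to 282.4 in TEC, EC and FB. The 4 parathyroid markers summed to 6918, 8627 and 4945 CPM in ungated TEC, against 33.08 to 154.1 CPM in Aire TEC, 36.23 to 105.4 CPM in Plet1 TEC and 4.399 to 62.22 CPM in Psmb11 TEC. The 8 hematopoietic markers summed to 1368, 1324 and 1093 CPM in Aire TEC, to 652.2, 343.3 and 262.9 CPM in ungated TEC, to 798.1, 52.66 and 112.1 CPM in Plet1 TEC and to 308.6, 0 and 186.3 CPM in Psmb11 TEC. Their part in the comparisons within TEC was not tested beyond the removals given below. The libraries held 53366016, 33386621 and 61258534 UMIs, and pairs of libraries shared 3 to 14 barcodes.

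Cldn3 and Cldn4 lie next to each other on chromosome 5 in opposite orientation, with 39279 bases and 0 counted genes between them. Cldn4 spans chr5:134945119-134946934 on the minus strand and Cldn3 chr5:134986214-134987472 on the plus strand of GRCm38, where Wbscr25 overlaps Cldn3 on the other strand. The other genes overlap no counted gene, at chr16:26356642-26371841 (Cldn1), chr16:18776847-18778262 (Cldn5), chr11:69964779-69967885 (Cldn7), chr17:23682584-23684026 (Cldn9), chr5:136966616-136975858 (Cldn15), chr7:65296165-65527781 (Tjp1), chr13:100496507-100552718 (Ocln) and chr9:37528078-37538319 (Esam). Their promoters are shown with that of Cldn5 (chr16:18776597-18776896, plus strand), the claudin with the opposite pattern between TEC and EC. Each sequence runs from 250 bases before the RefSeq start (GRCm38.p6) to 50 after it, Cldn3 at chr5:134985964-134986263 and Cldn4 at chr5:134946885-134947184. Capitals mark CAGGTG on either strand, the E-box form that repressors of the Snail and Zeb families are known to bind.
Cldn3: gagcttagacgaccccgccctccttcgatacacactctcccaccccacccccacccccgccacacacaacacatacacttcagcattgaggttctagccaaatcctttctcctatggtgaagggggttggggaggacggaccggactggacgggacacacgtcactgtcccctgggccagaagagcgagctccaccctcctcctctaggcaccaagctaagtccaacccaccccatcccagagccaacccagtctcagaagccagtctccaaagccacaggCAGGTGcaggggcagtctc
Cldn4: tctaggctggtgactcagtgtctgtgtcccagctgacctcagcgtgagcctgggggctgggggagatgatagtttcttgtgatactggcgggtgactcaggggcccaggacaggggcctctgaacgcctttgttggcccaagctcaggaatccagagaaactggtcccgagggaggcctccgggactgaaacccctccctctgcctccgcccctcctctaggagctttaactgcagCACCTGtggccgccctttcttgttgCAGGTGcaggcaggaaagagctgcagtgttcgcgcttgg
Cldn5: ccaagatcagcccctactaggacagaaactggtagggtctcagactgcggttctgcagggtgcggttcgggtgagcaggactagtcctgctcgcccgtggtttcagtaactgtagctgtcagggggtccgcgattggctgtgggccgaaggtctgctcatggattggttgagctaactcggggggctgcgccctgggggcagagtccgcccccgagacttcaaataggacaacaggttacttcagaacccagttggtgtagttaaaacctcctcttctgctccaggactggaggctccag
CAGGTG began 31 bases from the start in Cldn3 and at -14 and 11 in Cldn4, and was not in these letters of Cldn5. Promoter sequences were at hand for 8 of the 10 genes. Cldn7 and Ocln have 2 entries each, so that there were 10 entries. The E-box was found in 5 of the 10, those of Cldn3, Cldn4 and Ocln and the second of Cldn7, against 20.2% of 32851 promoter entries of the same length. The 4 genes are among the 5 with an entry that were higher in TEC than in EC, and 0 of the 3 that were lower held it. The 2 Ocln entries overlap and share a site, at 7 in the first and -213 in the second. The Tjp1 entry (chr7:65371195-65371494, minus strand) lies inside the gene span given above. The share with the E-box among all genes higher or lower in TEC was not counted, and its part in these levels was not tested. Of the other motifs searched on both strands, GGGCGG (35.7% of all entries) was in 9 of the 10 entries, AGGAAGT (9.35%) in 1, and the GRHL motif AACCGGTT (0.146%) and TATAAA (13.6%) in 0. A match describes letters and not binding.

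Cldn3, Cldn4, Cldn7, Cldn1, Cldn9 and Ocln were TEC genes, Cldn5, Esam and Tjp1 were highest in EC, and Cldn15 was highest in MEC. In TEC against EC, edgeR's quasi-likelihood test with the library as block (n = 3 libraries, Benjamini-Hochberg adjustment over 17796 genes) called all 10 genes, 6 higher and 4 lower in TEC. Of all genes tested, 32.7% were called higher and 25.4% lower in TEC. Against FB, 6 genes were higher and 3 lower in TEC, with 30.2% and 26.9% of all genes called in these directions.

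**Figure D1:**
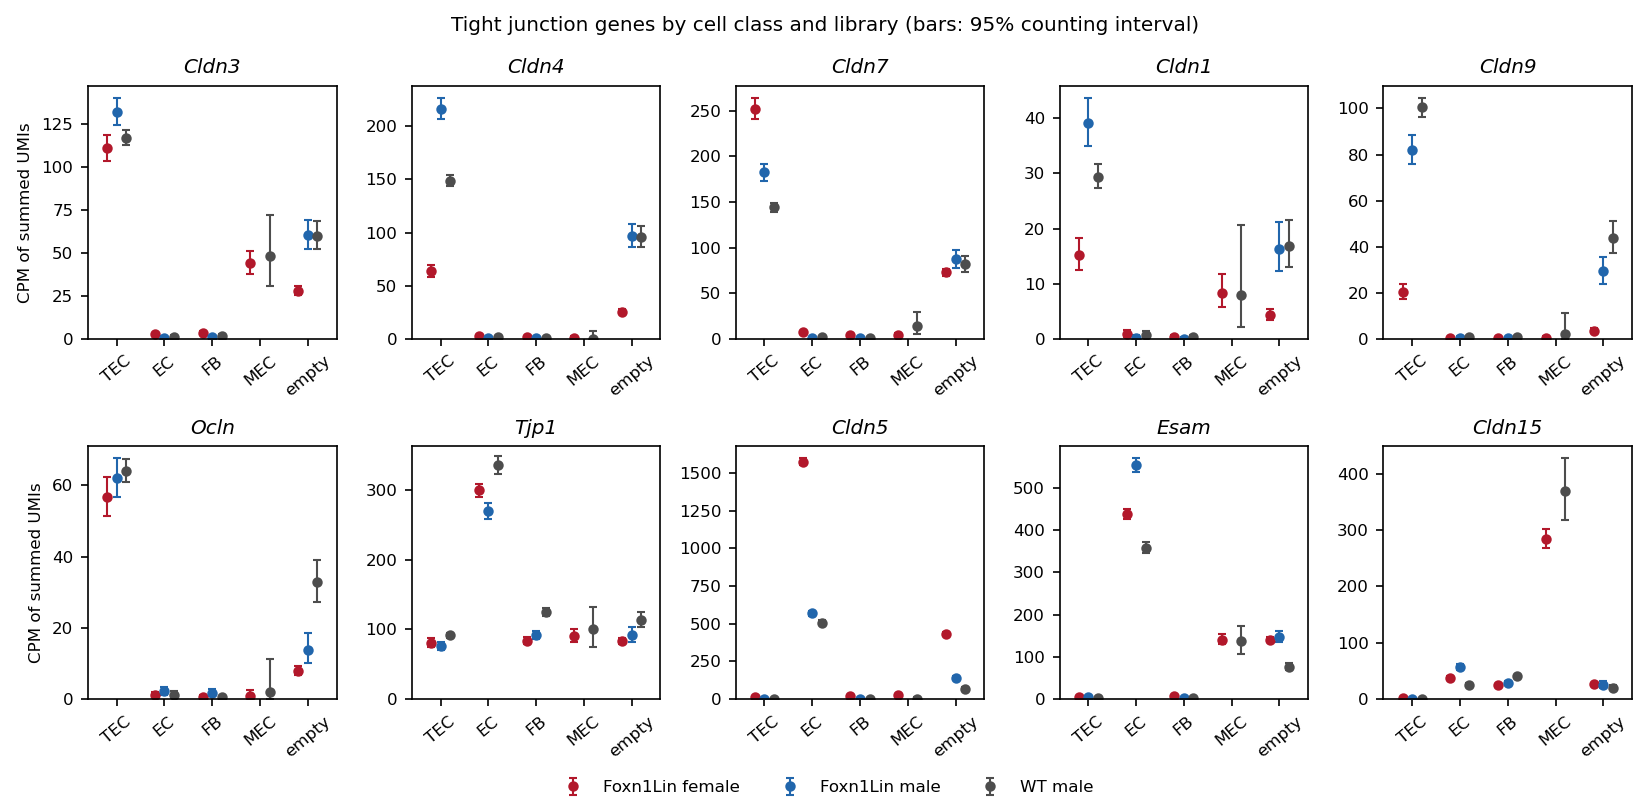
CPM of each gene (y axis) in TEC, EC, FB, MEC and empty droplets (x axis), with 1 point per library and bars for the 95% exact Poisson interval. Among the cell classes, Cldn3, Cldn4, Cldn7, Cldn1, Cldn9 and Ocln stand highest in TEC, Tjp1, Cldn5 and Esam in EC and Cldn15 in MEC.

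Cldn3, whose protein is a sealing claudin of many simple epithelia, was at 110.8, 132 and 117 CPM in TEC and at 0.606 to 2.58 CPM in EC. It was 6.07 ± 0.43 (log2 fold change ± SE, adjusted p = 9.7e-06) higher in TEC than in EC, and higher in 3 of 3 libraries. MEC also held Cldn3, at 44.1 and 48.2 CPM, below every TEC value and above every EC and FB value. Empty droplets held it at 28.1 CPM in Foxn1Lin female and 60.0 CPM in WT male, the latter above MEC. Cldn4, the partner of claudin-3 in thymic medulla, was at 63.7, 216 and 149 CPM in TEC and at no more than 2.25 CPM in any sum of EC, FB or MEC. Its log2 fold change between TEC and EC was 5.97 ± 0.56 (adjusted p = 4.05e-05). In Foxn1Lin male, 1 barcode held 360 Cldn4 UMIs, and without it the TEC level was 174.5 CPM.

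Cldn7, known as a binding partner of EpCAM, was at 252, 182.5 and 144 CPM in TEC and at 1.09 to 6.99 CPM in EC, a log2 fold change of 5.63 ± 0.53 (adjusted p = 4e-05). Ocln, the gene of occludin, was at 56.7, 61.9 and 64.0 CPM in TEC, the narrowest spread of these genes relative to the level. It lay at 1.25 to 2.18 CPM in EC (log2 fold change 4.94 ± 0.32, adjusted p = 6.89e-06). Cldn1, required for the barrier of the skin, was at 15.2, 39.2 and 29.4 CPM in TEC, above MEC at 8.41 and 8.04 CPM. Its sums in EC and FB held 0 to 10 UMIs each, and it was 5.17 ± 0.60 higher in TEC than in EC (adjusted p = 0.000124). Cldn9, known from the inner ear, was at 20.2, 81.9 and 100.5 CPM in TEC and at 0.166 to 0.642 CPM in EC and FB (log2 fold change against EC 6.96 ± 0.26, adjusted p = 1.77e-06). The 52, 49 and 106 TEC barcodes with the most Cldn9 UMIs held 100%, 87.8% and 84.9% of them, and the same number with the most Ocln UMIs held 61.3%, 60.9% and 61.7%. Such shares also follow how sparse a gene is.

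Cldn5 was at 1574, 569 and 506.5 CPM in EC and 15.5, 1.69 and 1.25 CPM in TEC, a log2 fold change of -8.25 ± 0.46 (adjusted p = 4.29e-06). The Foxn1Lin female library was the highest in both classes. Its empty droplets held Cldn5 at 432 CPM, against 138 and 69.5 CPM in the other libraries. Cldn5 was also at 19.9 CPM in FB and 27.5 CPM in MEC of that library, against 2.01 to 3.85 CPM elsewhere, and the part of free RNA in these values was not tested. The call of Cldn5 as lower in TEC than in FB (-1.08, adjusted p = 0.039) was lost under 10 of 16 alternatives, and the adjusted p ran from 0.0559 to 0.491 in these 10 and from 0.00412 to 0.491 over all 16.

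Esam, an immunoglobulin-like adhesion molecule of endothelium, was at 438, 554 and 358 CPM in EC and 3.87 to 5.55 CPM in TEC (log2 fold change -7.01 ± 0.47, adjusted p = 7.76e-06). MEC stood at 141 and 137 CPM, between EC and the remaining classes with no overlap, with empty droplets of these libraries at 141 and 77.1 CPM. Tjp1 was the broadest of the genes. It was at 299.6, 269.7 and 336 CPM in EC, and at 76.3 to 125 CPM in TEC, FB and MEC, which overlapped in their order. The EC level exceeded that of FB by 1.59 ± 0.14 on the log2 scale (adjusted p = 5.52e-05) and that of TEC by more, with TEC at -2.25 ± 0.15 against EC (adjusted p = 7.08e-06). Tjp1 was also lower in TEC than in FB, by a small margin (-0.67 ± 0.14, adjusted p = 0.00363), a call lost without Foxn1Lin male (adjusted p = 0.052). Its log2 CPM ratios per library were -0.05, -0.27 and -0.45, nearer to 0 than the fit, which scales libraries by TMM. Scaling by DESeq2 size factors moved the median of all genes between TEC and FB from 0.05 to 0.23.

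Cldn15, a pore-forming claudin best known from the intestine, was at 285 and 370 CPM in MEC, above 24.3 to 56.7 CPM in EC and 24.8 to 40.4 CPM in FB. In TEC it was at 2.25, 0.964 and 1.12 CPM, lower than in EC (-5.19 ± 0.43, adjusted p = 2.04e-05). In EC against FB, 3 of the 10 genes were higher (Cldn5 by 7.17 ± 0.44, Esam by 6.89 ± 0.47 and Tjp1 as above) and 0 lower, where 17.8% and 20.5% of all genes were called. Ocln did not pass the test there (adjusted p = 0.113), but was called higher in EC with gates of 3 UMIs (1.26, adjusted p = 0.0291), without the top Scrublet scores (1.25, adjusted p = 0.00543) and without Foxn1Lin male (1.21, adjusted p = 0.0461). In MEC against FB, 4 genes were higher (background 9.26%) and 0 lower (background 11.1%). They were Cldn1 (5.19 ± 0.83, adjusted p = 0.00276), Esam (5.04 ± 0.47, adjusted p = 0.000189), Cldn3 (4.20 ± 0.45, adjusted p = 0.000384) and Cldn15 (3.32 ± 0.38, adjusted p = 0.000542). Cldn1 in MEC rested on 33 and 4 UMIs. Without Foxn1Lin female or without WT male, MEC stood in a single library, and the spread came from the other classes. The Cldn1 fold was then 5.03 and 5.66, in that order. Without Foxn1Lin female, the fold of Cldn7 was 3.75, in place of 1.10 (adjusted p = 0.419) with all libraries. MEC also carried fibroblast markers at 9511 and 10470 CPM, against 13847 to 16687 CPM in FB.

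**Figure D2:**
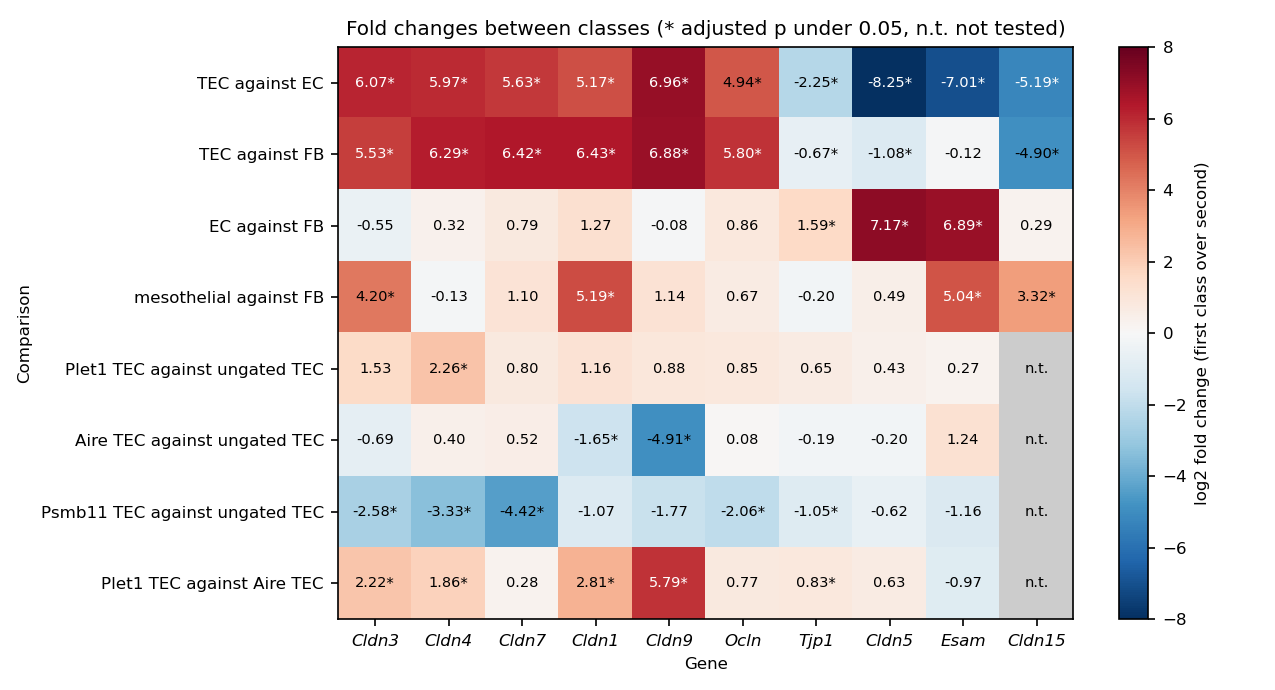
Log2 fold change of each gene (columns) in each comparison of classes (rows), with the first class over the second. Asterisks mark an adjusted p under 0.05, and Cldn15 was not tested within TEC. TEC against EC separates 6 higher from 4 lower genes.

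Within TEC, the Plet1 gate held the highest levels of Cldn3, Cldn4, Cldn1, Ocln and Tjp1 in each library. Cldn9 was lower in Aire TEC, and Cldn4 and Cldn7 lower in Psmb11 TEC, than in ungated TEC. Plet1 encodes a surface protein used as a marker of TEC progenitors, Aire marks the mature medullary cells that display tissue antigens, and Psmb11 the cortical cells. Markers of other TEC types also differed between Plet1 and ungated TEC, and not alike in the libraries. Basal markers (4 genes) summed to 1181, 155.4 and 1102 CPM in Plet1 TEC and 488.7, 186.1 and 390.8 CPM in ungated TEC, and goblet markers (4 genes) to 1116, 481.9 and 2922 CPM and 1104, 1003 and 897.9 CPM. Tuft markers (5 genes) summed to 262.4, 190.9 and 521.5 CPM in Plet1 TEC against 238.9, 133.9 and 330.9 CPM, and M-cell markers (4 genes) to 314.1, 242.3 and 886.4 CPM against 526.4, 520.3 and 502.5 CPM. Their part in the levels of the junction genes in Plet1 TEC was not tested. Tests used 15343 genes and 9 of the 10 members, since Cldn15 fell under the filter on low counts. Ungated TEC were the shallowest, with median counts of 8271.5, 10731 and 12697 UMIs per barcode, against 10922, 17296.5 and 21328 in Plet1 TEC, 14181, 23773 and 23509.5 in Aire TEC and 22121, 19117 and 29618 in Psmb11 TEC.

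**Figure D3:**
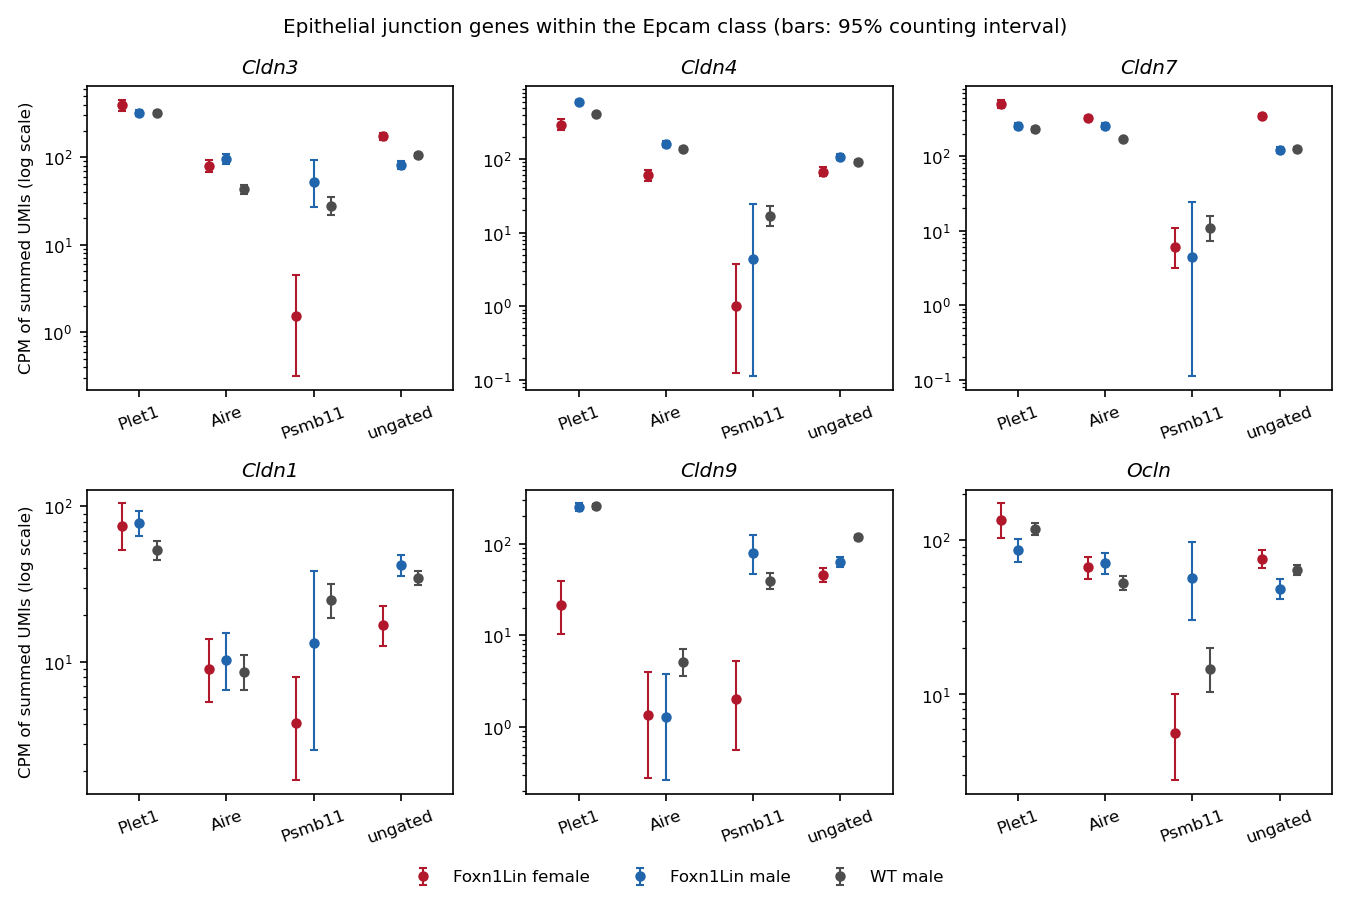
CPM on a log scale (y axis) of 6 junction genes in Plet1, Aire, Psmb11 and ungated TEC (x axis), 1 point per library, with bars for the 95% exact Poisson interval. Plet1 TEC stand highest for Cldn3, Cldn4, Cldn1 and Ocln, and Cldn9 of Foxn1Lin female Plet1 TEC lies below that of ungated TEC.

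Cldn4 was at 295, 598 and 406.5 CPM in Plet1 TEC and at 67.5, 107 and 91.7 CPM in ungated TEC. It was higher in 3 of 3 libraries, by 2.26 ± 0.36 on the log2 scale (edgeR, adjusted p = 0.026), and was the only one of 9 genes called in this comparison, where 0.267% of all genes were higher and 0.463% lower. At an unadjusted p under 0.05, 5 genes were higher and 0 lower (4.49% and 8.33% of all genes), and DESeq2 called 1 and 0 (1.85% and 1.9% of the 13558 genes it gave an adjusted p). Without the TEC barcode of each library with the most Cldn4 UMIs, an alternative chosen after seeing the data, the fold was 2.01 (adjusted p = 0.044) and the Foxn1Lin male level 381 CPM. The call was lost without Foxn1Lin male (adjusted p = 0.146) and without WT male (adjusted p = 0.0994), and likewise with overlapping subclasses kept (2.09, adjusted p = 0.0674) and with no library block (2.32, adjusted p = 0.144). Cldn3 was at 392, 321 and 320.1 CPM in Plet1 TEC against 173, 82.0 and 105 CPM, with ranges that did not overlap, but did not pass the test (1.53 ± 0.58, adjusted p = 0.296). Cldn1 likewise did not overlap, at 75.3, 78.3 and 52.2 CPM against 17.3, 42.0 and 34.8 CPM (adjusted p = 0.252).

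Cldn9 was at 249 and 256 CPM in Plet1 TEC of Foxn1Lin male and WT male, and at 21.5 CPM in those of Foxn1Lin female. The Foxn1Lin female value rested on 10 UMIs in 33 barcodes. In Aire TEC, Cldn9 was at 1.36, 1.29 and 5.14 CPM, below its empty droplets at 3.51, 29.3 and 43.8 CPM. It was lower in Aire than in ungated TEC in 3 of 3 libraries (-4.91 ± 0.71, adjusted p = 0.000632), and this call held under 17 of 17 alternatives. The 4 mTEC1 markers also summed lower in Aire TEC, to 746.5, 582.5 and 1012 CPM against 2841, 4091 and 3282 CPM in ungated TEC, 2457, 4195 and 3442 CPM in Plet1 TEC and 1445, 1359 and 1580 CPM in Psmb11 TEC. Tuft markers were at 82.94, 50.69 and 170 CPM in Aire TEC, below ungated TEC in each library. The part of these cell types in the comparisons with Aire and Psmb11 TEC was not tested. Cldn1 was also lower in Aire TEC, at 9.06, 10.3 and 8.66 CPM (-1.65 ± 0.43, adjusted p = 0.0147), and was not called without Foxn1Lin male or WT male (adjusted p = 0.127 and 0.0588). These were the 2 calls in that comparison, where 18.3% of genes were higher and 15.1% lower. Cldn7 was at 324, 254 and 167 CPM in Aire TEC and at 345, 120 and 126 CPM in ungated TEC, and Cldn4 at 60.3, 161 and 135 CPM in Aire TEC, with ranges that overlapped those of ungated TEC. With gates of 1 UMI, both were called higher in Aire than in ungated TEC, Cldn4 by 1.14 (adjusted p = 0.0117) and Cldn7 by 1.05 (adjusted p = 0.0284).

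Plet1 against Aire TEC called 5 of 9 genes higher and 0 lower, with 16.1% and 21.2% of all genes called. Cldn9 differed most (5.79 ± 0.72, adjusted p = 0.000202), followed by Cldn1 (2.81 ± 0.45, adjusted p = 0.000945), Cldn3 (2.22 ± 0.59, adjusted p = 0.0145), Cldn4 (1.86 ± 0.35, adjusted p = 0.00237) and Tjp1 (0.83 ± 0.21, adjusted p = 0.0115). Cldn7 was at 499, 252 and 228 CPM in Plet1 TEC and did not pass the test (0.28 ± 0.30, adjusted p = 0.505). Without WT male, Cldn3 (adjusted p = 0.151) and Tjp1 (adjusted p = 0.123) were not called. The Tjp1 call was also lost with gates of 1 UMI (adjusted p = 0.0652), without barcodes with a UMI of another gate gene or Ptprc (0.0541) and with only these classes in the fit (0.051). Ocln, not called here (0.77, adjusted p = 0.173), was called higher in Plet1 TEC with gates of 3 UMIs (adjusted p = 0.00423) and without the barcodes of most UMIs (0.93, adjusted p = 0.0113).

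Psmb11 TEC, the gate of cortical cells, had 5 genes lower and 0 higher than ungated TEC, where 11.2% and 5.44% of all genes were called. Cldn7 was at 6.12, 4.40 and 10.8 CPM (-4.42 ± 0.41, adjusted p = 0.000551) and Cldn4 at 1.02, 4.40 and 16.9 CPM (-3.33 ± 0.46, adjusted p = 0.00186). Cldn3 (-2.58, adjusted p = 0.033), Ocln (-2.06, adjusted p = 0.0239) and Tjp1 (-1.05, adjusted p = 0.0139) were lower as well, Ocln in 2 of 3 libraries, at 5.61, 57.2 and 14.6 CPM against 75.7, 48.3 and 64.0 CPM. The Foxn1Lin male sum held 10 barcodes only, in which cortical markers summed to 1786 CPM against 11850 and 10351 CPM in the other libraries. Basal, goblet, tuft and M-cell markers summed lower in Psmb11 than in ungated TEC in each library. Tuft markers were at 41.31, 30.79 and 45.04 CPM and M-cell markers at 42.84, 176 and 68.14 CPM in Psmb11 TEC. The 4 mTEC2 markers went the other way, at 6387, 8508 and 7356 CPM against 4424, 7853 and 4584 CPM. The part of these types was not tested. Without Foxn1Lin female or without WT male, 2 genes were called, with Cldn3 (adjusted p = 0.0732 and 0.175), Ocln (0.158 and 0.3) and Tjp1 (0.0753 and 0.146) lost. Cldn3 was also lost with overlapping subclasses kept (adjusted p = 0.0969), Ocln with gates of 1 UMI (0.0644), and Ocln and Tjp1 without barcodes with a UMI of another gate gene or Ptprc (0.0629 and 0.0695). Cldn9 (-1.77, adjusted p = 0.0769) was called lower under 7 of 18 alternatives, with folds of -3.11 (gates of 3 UMIs) to -1.68 (only these classes fitted) and adjusted p of 0.00429 to 0.0496. These include the fit without Foxn1Lin male, where 6 genes were called. Cldn1 was called lower with no filter on low counts (-1.26, adjusted p = 0.0428) and with only these classes fitted (adjusted p = 0.0436). In the directions with 0 calls in EC against FB, MEC against FB and within TEC, 0 members had an unadjusted p under 0.05 by edgeR and 0 were called by DESeq2. Cldn7 and Cldn4 stood below the level of empty droplets (72.8 to 87.0 CPM and 25.3 to 97.0 CPM) in Psmb11 TEC of every library.

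The share of barcodes with a UMI was taken after thinning each barcode to 2000 UMIs, which left out 13, 18 and 22 shallower TEC barcodes and 299, 25 and 41 EC barcodes. Cldn3 was then detected in 18.2%, 13.6% and 13.2% of TEC, and in 0.651%, 0% and 0.118% of EC, where 0 of 832 barcodes allows a share with a UMI of up to 0.361% (3 counts; upper Clopper-Pearson bound 0.442%). Unthinned shares were 37.4%, 29% and 39.2% of TEC and 1.4%, 0.583% and 0.901% of EC, at median depths of 11758.5, 13526 and 17994.5 UMIs in TEC and 4219, 7617 and 7188.5 in EC. In Plet1 TEC, thinned shares of Cldn3 were 45.5% (95% Clopper-Pearson interval 28.1% to 63.6%), 22.1% (12.9% to 33.8%) and 34.9% (26.6% to 43.9%). Those in Aire TEC were 13.9%, 17.8% and 7.44%. Cldn4 gave 30.3%, 23.5% and 34.9% of Plet1 TEC and 11.7%, 25.6% and 21.5% of Aire TEC, so in Foxn1Lin male the share was not higher where the CPM was. Cldn9 was detected in 23.5% and 23.8% of Plet1 TEC of the male libraries and in 3.03% (1 of 33) of Foxn1Lin female. In Aire TEC it was detected in 0 of 137, 0 of 90 and 3 of 242 barcodes, and 0 of 137 allows a share with a UMI of up to 2.19% (3 counts; upper Clopper-Pearson bound 2.66%). Intervals and limits from a count of 0 cover counting error only, and limit barcodes with a UMI, not cells that express the gene.

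Cldn3 and Cldn4 were found in the same thinned barcode in 5 of 33, 7 of 68 and 22 of 126 Plet1 TEC. Barcodes with Cldn3 alone numbered 10, 8 and 22, and with Cldn4 alone 5, 9 and 22. Cldn3 and Cldn9 were found together in 0, 10 and 16 Plet1 TEC and in 0 barcodes of Aire TEC of any library. A UMI of the reporter was found in 64.9% and 77.2% of thinned TEC of the lineage trace libraries, in 10.1% and 10.7% of EC and 5.01% and 3.89% of FB, classes that should lack it, and in 0 barcodes of WT male. Empty droplets held it at 236.6 and 580.1 CPM. In the lineage trace libraries, the reporter was detected in 14 of 16 and 39 of 42 thinned TEC with a Cldn9 UMI (87.5% and 92.9%). It was detected in 64.1% and 75.6% of TEC without one. The intervals overlapped in Foxn1Lin female (61.7% to 98.4% and 59.7% to 68.4%) and not in Foxn1Lin male (80.5% to 98.5% and 71.2% to 79.6%). Among ungated TEC the shares with a Cldn9 UMI were 92.9% (interval 66.1% to 99.8%) and 88% (68.8% to 97.5%), and without one 65.4% (58.8% to 71.5%) and 75.9% (70.3% to 80.9%), so that the intervals overlapped. Aire TEC, where Cldn9 was not detected in these libraries after thinning, held the reporter in 40.9% and 62.2%. With and without a Cldn3 UMI the shares were 68.1% and 64.1% in Foxn1Lin female and 73% and 77.8% in Foxn1Lin male, with overlapping intervals. For Cldn4 they were 67.3% and 64.6% in Foxn1Lin female and 67.9% (56.4% to 78.1%) and 79% (74.6% to 83%) in Foxn1Lin male, where ungated TEC had 59.5% (42.1% to 75.2%) and 79.5% (74% to 84.3%). These shares were not tested, and a barcode without a UMI can express either gene.

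Between libraries in TEC, Foxn1Lin female was at least 2-fold from Foxn1Lin male in 5 of 10 genes with at least 20 UMIs over both libraries, against 16.8% of all such genes. Cldn9 was 0.247-fold (95% interval 0.206 to 0.295), Cldn4 0.295-fold (0.266 to 0.326) and Cldn1 0.388-fold (0.311 to 0.482) of the Foxn1Lin male CPM, and Cldn5 9.17-fold (5.25 to 17.3). Without the barcodes of most UMIs, Cldn4 fell short of 2-fold (log2 ratio -0.89) and Cldn7 passed it (1.015). Cldn15 was 2.33-fold on 17 and 8 UMIs, with an interval of 0.953 to 6.24 that includes no difference. The TEC of these libraries also differed in makeup, with Psmb11 TEC at 78 of 514 and 10 of 482 barcodes and Plet1 TEC at 33 and 68, and the part of makeup in these ratios was not tested. Foxn1Lin female also stood apart in its reads in cells (74.7% against 90.1% and 93%), saturation (52.1% against 81% and 72.8%), antisense reads (9.6% against 6% and 3.7%) and empty-droplet UMIs (17400043 against 3380554 and 3786506), and its empty droplets held Cldn5 at 432 against 138 CPM. The part of these differences was not tested. Within Plet1 TEC, the Foxn1Lin female values of Cldn9 and Cldn4 were below those of Foxn1Lin male as well, whereas Cldn1 was at 75.3 and 78.3 CPM. Foxn1Lin male against WT male gave 0 of 10 genes past 2-fold in TEC (background 14.4%), with ratios from 0.816 (Cldn9) to 1.45 (Cldn4).

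In EC, Cldn5 was 2.77-fold (2.68 to 2.86) higher in Foxn1Lin female than in Foxn1Lin male, while Tjp1 was 1.11-fold and Esam 0.791-fold. Of 8 genes with at least 20 UMIs, 4 were past 2-fold (background 18.3%). The other three, Cldn7, Cldn3 and Cldn4, were at 6.99, 2.58 and 2.25 CPM in EC of Foxn1Lin female, below its empty droplets at 72.8, 28.1 and 25.3 CPM. Between Foxn1Lin male and WT male, 1 of 7 genes was past 2-fold in EC (background 9.42%), Cldn15 at 56.7 and 24.3 CPM, a ratio of 2.33 (1.97 to 2.77).

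**Figure D4:**
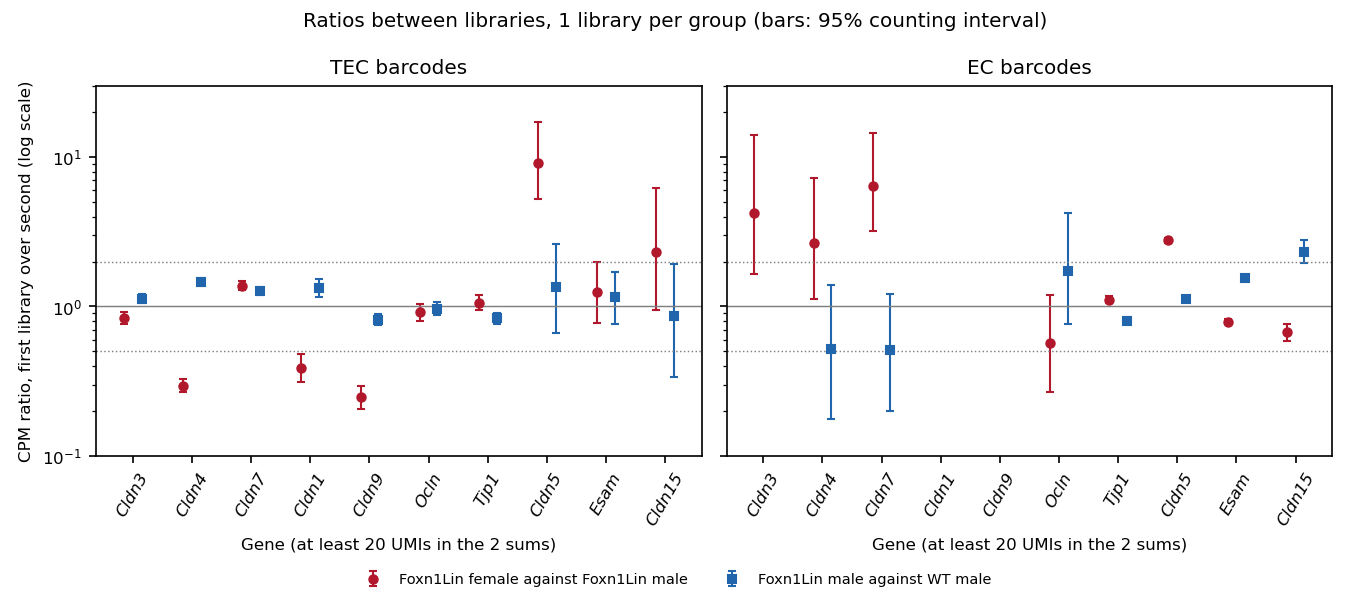
CPM ratio between libraries on a log scale (y axis) for each gene with at least 20 UMIs (x axis) in TEC and EC. Bars are 95% counting intervals, the solid line marks equal levels and dotted lines 2-fold. Cldn4, Cldn1 and Cldn9 lie below the lower dotted line in TEC of Foxn1Lin female against Foxn1Lin male.

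Other genes of the junction were taken from 6 lists. In TEC against EC, the 9 other claudins tested gave 7 higher and 1 lower, where 32.7% and 25.4% of all genes were called, with a median log2 fold change of 4.80 against 0.12 over all genes. Cldn14 (7.03), Cldn13 (5.74) and Cldn6 (4.89) led them. Cldn13 and Cldn14 ran opposite to each other within TEC: Aire TEC were higher in Cldn13 (2.74, adjusted p = 0.000285) and lower in Cldn14 (-3.83, adjusted p = 0.00234) than ungated TEC, and Plet1 TEC were lower in Cldn13 (-5.43, adjusted p = 3.36e-05) and higher in Cldn14 (3.96, adjusted p = 0.0019) than Aire TEC. Cldn13 was at 107, 67.4 and 79.3 CPM in Aire TEC and 0, 0.658 and 2.63 CPM in Plet1 TEC. In MEC, Cldn10 was at 128 and 131 CPM, higher than in FB (6.14, adjusted p = 2.29e-05).

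Of the 10 other membrane proteins of the tight junction, 6 were higher and 3 lower in TEC than in EC. Of all genes, 32.7% and 25.4% were called in these directions, so the share lower was near that of all genes. The lower ones were Jam2 (-7.79), Jam3 (-4.47) and Ildr2 (-2.35), and the list median was 2.70 against 0.12. Cxadr, a viral receptor of the junction, was higher in TEC than in EC (4.83), and in MEC than in FB (7.08). Of the 14 scaffold and polarity genes tested, 6 were higher, among them Crb3 (5.84), Cgn (4.86) and Tjp3 (4.72), and 4 lower, shares near those of all genes, and the median was -0.08 against 0.12. Tjp3, the ZO-3 relative of Tjp1, thus moved the other way from Tjp1 between these classes. In Aire against ungated TEC, 7 of the 14 were lower and 1 higher, Magi1 (2.01), and adherens junction and desmosome genes gave 9 lower and 1 higher of 18, where 15.1% of all genes were lower and 18.3% higher. The medians were -0.57 and -0.84, against 0.09 over all genes. Plet1 against Aire TEC gave 14 higher and 1 lower of these 18, led by Perp (3.10), Ppl (2.61) and Pkp2 (2.21), where 16.1% of all genes were higher and 21.2% lower (median 1.49 against -0.13). The endothelial junction list gave 8 of 10 lower in TEC than in EC, with Cdh5, VE-cadherin, at -8.94. Of all genes, 25.4% were lower there, and the list median was -6.65 against 0.12. Among regulators of the epithelial state, 6 of 11 were higher in TEC than in EC and 3 lower, Snai1 (-6.11), Zeb1 (-3.03) and Zeb2 (-2.76). Of all genes, 32.7% were higher and 25.4% lower, so the share lower was near that of all genes (list median 3.60 against 0.12). Psmb11 TEC were lower than ungated TEC in 6 of 9 membrane proteins tested (11.2% of all genes, median -1.60 against -0.14), among them Marveld2 (-2.60), tricellulin, and in Tjp3 (-2.88) and Crb3 (-1.90). Between Plet1 and ungated TEC, edgeR called 0 genes of all lists. Of the 18 adherens junction and desmosome genes, 10 were higher and 0 lower there at an unadjusted p under 0.05 (4.49% and 8.33% of all genes), and DESeq2 called 6 and 0 (1.85% and 1.9%), with a median of 0.49 against -0.06 over all genes.

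Over 20 sums of library and class, the genes whose log2 levels ran most like each gene were found among 14556 candidates. This is a description, since the sums share libraries. They also span TEC, EC, FB and MEC, so differences between these classes enter each r. Cldn5 was most like Tcf15 (Pearson r = 0.985), Gpihbp1 (0.978) and C1qtnf9 (0.977), and Esam most like Kdr (0.947), the VEGF receptor, Vsig2 (0.945) and Unc45b (0.943). Tjp1 was most like Ankrd11 (0.94), Sema6a (0.921) and Afdn (0.92). Cldn4 was most like Slc27a2 (0.971), Ehf and Macc1 (0.948 each). Cldn9 was most like Kif19a (0.984), Fbxo2 (0.971) and Kcnk1 (0.968), and Cldn15 most like Slc16a1 (0.97), Hoxa5 (0.946) and Abcb1b (0.942). Cldn1 was most like Rhov (0.959), Prxl2a (0.948) and Pak3 (0.944), and Cldn7 most like Alox12e (0.963), Skint3 and Tjp3 (0.959 each). Ocln was most like Zfp750 and Ovol1 (0.976 each), regulators of epithelial differentiation, and Rab25 (0.972), and Cldn3 most like the plakophilin Pkp2 and Erbb3 (0.944 each) and Crb3 (0.933). Among the 10 genes, Cldn1 and Cldn3 were the most alike pair (0.93), followed by Cldn4 and Cldn7 (0.924), and the neighbors Cldn3 and Cldn4 gave 0.829.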

How the data were processed

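Each deposited matrix is a table of raw UMI counts, genes by barcodes, which the authors made with Cell Ranger (7.01 in the submitters' processing notes) on GRCm38, with transgene sequences added. The deposited summaries give percent of reads (saturation 52.1% to 81%, intronic 21.7% to 27.5%). Levels were not compared between genes.

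Called barcodes (8616, 3583 and 5478) with 1000 genes or fewer and at least 20% mitochondrial counts were removed (138, 149 and 222), and those in 2 classes dropped (259, 65 and 195). Doublets were left in. Scrublet in scanpy 1.11.5 marked 5, 27 and 13 barcodes automatically, so removal of its top scores (361, 140 and 225 barcodes) is an alternative. Counts were summed per library and class with at least 10 barcodes and tested with edgeR 4.0.16 (TMM, filterByExpr, library as block, adjusted p under 0.05) in R 4.3.3, and with DESeq2 1.42.0 as an alternative. Scripts were tested on simulated data. SE is the fold divided by the root of F. Poisson and Clopper-Pearson intervals (95%) come from scipy 1.17.1, and the limit for an absent gene was 3 counts. Empty droplets are uncalled barcodes of 141 to 563, 23 to 89 and 29 to 112 UMIs. The genes named are the 10 members, per list at most 3 genes with the largest fold among those called per direction, and the 3 most alike genes of each. Further genes of the lists are given as counts. Members and lists were chosen with earlier results of these data known. Gene positions are those of GENCODE vM21.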

Additional observations from a re-analysis of the deposited data

Results flagged for a closer look

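In 4 cases libraries moved in opposite directions between the same classes, each beyond its 95% counting interval; the difference was not tested, with 1 library per group. Cldn9 in Plet1 against ungated TEC had log2 CPM ratios of -1.08 in Foxn1Lin female (10 against 121 UMIs), 1.98 in Foxn1Lin male and 1.13 in WT male. Cldn15 in EC against FB was at 0.62, 0.98 and -0.73 in the same order. Esam in TEC against FB was at -0.57, 0.98 and 1.06, on 20 to 119 UMIs per sum. Ocln in Aire against ungated TEC was at 0.55 in Foxn1Lin male and -0.27 in WT male. Counting intervals leave out the spread between animals.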

How the results depend on the processing

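No paired analysis was possible between groups, which held 1 library each. The class comparisons were paired within libraries by a block, and the fits without the block are given below. Of the alternatives to the class folds, 0 reversed a called gene. Those of TEC against EC kept 10 genes called under each alternative. The following counts moved by over 1.5 times, and the cause was not tested beyond fewer samples where a library was left out. Plet1 against ungated TEC had 0 genes called in place of 1 with overlapping subclasses kept, with no library block, and in a range of 0 to 1 without each library (0 without Foxn1Lin male or WT male). Aire against ungated TEC had 4 in place of 2 with gates of 1 UMI, and 1 to 2 without each library. Psmb11 against ungated TEC had 3 in place of 5 without barcodes with a UMI of another gate gene or Ptprc, and 2 to 6 without each library. Plet1 against Aire TEC had 3 to 5 in place of 5. Between Foxn1Lin male and WT male, the count past 2-fold was 1 (Cldn15) in place of 0 in TEC without the barcodes of most UMIs, and 2 in place of 1 in EC with gates of 1 or 3 UMIs and without the barcodes of most UMIs. Without the barcodes of most UMIs, Cldn4 fell short of 2-fold between Foxn1Lin female and Foxn1Lin male TEC (log2 ratio -0.89) and Cldn7 passed it (1.01). Alternatives chosen after seeing the data removed TEC barcodes with a UMI of Gcm2 or Casr (52, 33 and 84), 1 barcode per library with the most Cldn4 UMIs, and the Psmb11 sum of 10 barcodes. Of these, the removal of Gcm2 or Casr barcodes left Cldn5 uncalled in TEC against FB (adjusted p = 0.0559), and the removal of the small sum added Cldn9 (-2.23, adjusted p = 0.0417) in Psmb11 TEC. Over all genes, Plet1 against ungated TEC had 41 higher and 71 lower, against 251 and 258 with DESeq2, 82 and 360 without a filter, 147 and 214 with gates of 3 UMIs, 19 and 22 with gates of 1, 59 and 112 without the barcodes of most UMIs, 21 and 14 with overlapping subclasses, 25 and 20 with only these classes fitted, 4 and 21 without the block, and 8 and 40, 1 and 1, and 1 and 3 without Foxn1Lin female, Foxn1Lin male and WT male. Psmb11 against ungated TEC had 835 and 1721, and 439 and 1027 without the block, 482 and 2454 without a filter, 666 and 1096 with gates of 1 UMI, 1330 and 2101 with gates of 3, 1313 and 1758 without the sum of 10 barcodes, 961 and 1184 without the barcodes of most UMIs, 135 and 529 without Foxn1Lin female and 36 and 242 without WT male. Without WT male the counts were also lower in other comparisons. Aire against ungated TEC had 547 and 870, from 2811 and 2322 (1821 and 1726 without the block). Plet1 against Aire TEC had 1052 and 1054, from 2463 and 3256 (1693 and 1909 with only these classes fitted, 1787 and 2153 without Foxn1Lin male). EC against FB had 1747 and 2067, from 3169 and 3648 (2031 and 2330 without Foxn1Lin male). For MEC against FB such counts are left out, since MEC stood in a single library without Foxn1Lin female or WT male. Depth limits values near 1 CPM, such as Cldn15 in TEC, which rest on 8 to 27 UMIs.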

Other observations

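Among barcodes in no class (3610, 1217 and 1539, or 29.3% to 42.6% of those kept), Tjp1 was nearly level between libraries at 100.4, 100.7 and 101 CPM. Cldn5 was at 219, 38.2 and 19.8 CPM in them and Cldn7 at 36.6, 30.4 and 61.1 CPM.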
